A study of Mus musculus with 4 samples.

Results

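Imprinted growth genes are genes of fetal growth and metabolism whose RNA comes mainly from the maternal or mainly from the paternal copy. The 10 described here are Igf2, H19, Dlk1, Meg3, Peg3, Cdkn1c, Plagl1, Grb10, Mest and Gnas. They were taken by name, through their Ensembl identifiers, and all 10 were found among the 43629 genes of the count tables. The series measured RNA in pancreatic islets of C57BL/6 mice, the clusters of hormone cells in the pancreas, with 1 library for each of 4 groups. The first group is control islets, with the genotype given as control. The second, with the genotype Rip2;IMP2, is called an islet-specific knockout in the title of the series. The other 2 are from wild-type islets: an IMP2-RIP seq library, in which RNA bound to the protein IMP2 is recovered with an antibody (RNA immunoprecipitation, RIP), and a library titled IgG, the usual name of the antibody control of such an experiment. Rip2 is a common name for a rat insulin promoter, which is active in beta cells, so that other cells of an islet may keep the gene intact. The labels give no age, number of mice or pooling. Each ratio below therefore compares 1 library with 1 library, has no replicate check and carries no p-value.

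In an imprinted domain, one or more control regions that are methylated on only the maternal or only the paternal chromosome set which copy of each neighbouring gene is active. Paternally expressed members such as Igf2, Dlk1, Peg3, Plagl1 and Mest are mostly linked to growth, and maternally expressed members such as H19, Meg3, Cdkn1c and Grb10 mostly to its restraint. IMP2, encoded by Igf2bp2, is one of the insulin-like growth factor mRNA-binding proteins, which are named for binding Igf2 mRNA. In the beta cell, Cdkn1c is known as a brake on division, and Gnas encodes the G protein subunit that links incretin and glucagon receptors to cyclic AMP.

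The gene counts of the 4 libraries summed to between 6025594 (RIP) and 26350813 (control islets), so that 3 counts correspond to between 0.114 and 0.498 CPM, the count of a gene rescaled so that every library has an equal sum over genes. Igf2bp2, the gene named as deleted, had 255 counts in control islets and 222 with the knockout label. Its ratio of 0.979 (95% counting interval 0.814 to 1.18) was not lower, so directions below are drawn for the library labelled knockout without a check of its label. A count over the whole gene does not test the loss of a part of it. The IgG library is labelled islet, but 10 beta cell markers summed to 973 CPM there, against 309568 in control islets, and the alpha cell marker Irx1 was at 0. In that library 10 markers of brown adipocytes summed to 21026 CPM, against 11.3 in control islets, 11.4 in the library labelled knockout and 1273 in the RIP.

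By counts per kb, Meg3 and Peg3 far exceeded the other 8 members in the 2 islet libraries and in the RIP. The Gnas count, and with it the rank of Gnas, is uncertain for a reason given below. Levels between genes are given as CPM per kb of exon. Meg3, a long noncoding RNA of the Dlk1-Dio3 domain, stood at 75.3 per kb in control islets, 109.4 in the library labelled knockout, 69.7 in the RIP and 0.587 in IgG. Peg3, a zinc finger protein, stood at 48.2, 56.5, 46.7 and 2.41 in the same order. The third member in control islets was Grb10 at 4.85 per kb, so a gap of about an order of magnitude separated Peg3 from the rest. Below Grb10 came Cdkn1c at 2.21, Gnas at 2.07 and Mest at 1.73, whose counting intervals overlapped from each neighbour to the next. Igf2 followed at 1.11 per kb. Dlk1 at 0.503 and Plagl1 at 0.335 overlapped in their intervals, and H19 was last at 0.0926, from 6 reads.

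**Figure D1:**
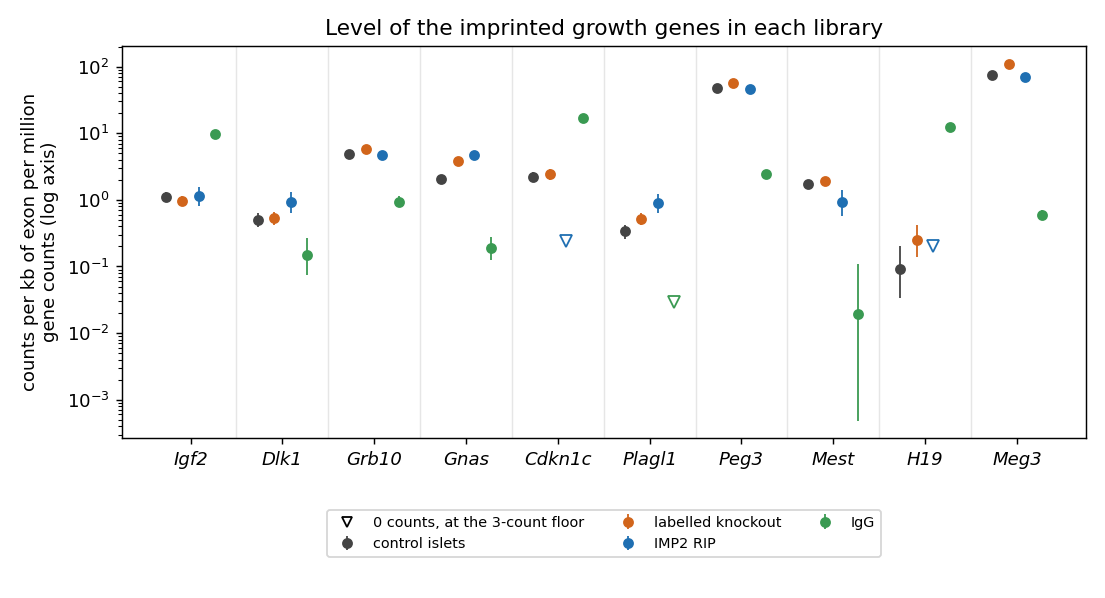
Level in CPM per kb of exon (log axis) of the 10 imprinted growth genes in each of the 4 libraries, with exact 95% intervals that cover counting error only and open triangles for libraries at 0 counts. Meg3 and Peg3 lie between 46.7 and 109.4 in the 2 islet libraries and the RIP, and only Cdkn1c, H19 and Igf2 are higher in the IgG library than in the other 3.

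The order of levels was nearly the same in the library labelled knockout, where Gnas at 3.78 per kb lay apart above Cdkn1c at 2.40. In the RIP, Meg3 and Peg3 again led, Grb10 and Gnas at 4.71 and 4.69 did not differ beyond counting error, and Igf2, Dlk1, Mest and Plagl1 lay between 0.891 and 1.13 with overlapping intervals. The IgG library had another order, with Cdkn1c at 17.2, H19 at 12.4 and Igf2 at 9.89 first, each apart from the next. Counting only exon bases that no other gene covers moved Meg3, Mest and Gnas in control islets to 82.1, 2.25 and 2.65. For Gnas those bases leave out 96.4% of the coding bases of the transcript Gnas-202, so 2.65 does not remove the uncertainty.

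Stretches before the start sites of Meg3 and Peg3, the 2 abundant members, are shown here because only their windows, among the promoter windows of the members, hold the full cyclic AMP response element, the letters TGACGTCA, which read the same on both strands. RefSeq (GRCm38.p6) gave 18 promoter windows of 300 bases for 8 members, 250 bases before the start site and 50 after it. The 250 bases before the start are printed on the gene's strand, with the response element and, for Meg3, a TATAAA box in capitals. The Meg3 stretch is chr12:109540746-109540995 on the plus strand, and that of Peg3 is chr7:6730420-6730669 on the minus strand.
Meg3: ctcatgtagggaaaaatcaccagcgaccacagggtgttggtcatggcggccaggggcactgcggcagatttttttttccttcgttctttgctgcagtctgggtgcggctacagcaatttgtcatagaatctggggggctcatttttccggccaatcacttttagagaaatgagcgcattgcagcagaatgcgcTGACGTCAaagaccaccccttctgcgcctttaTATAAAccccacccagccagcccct
Peg3: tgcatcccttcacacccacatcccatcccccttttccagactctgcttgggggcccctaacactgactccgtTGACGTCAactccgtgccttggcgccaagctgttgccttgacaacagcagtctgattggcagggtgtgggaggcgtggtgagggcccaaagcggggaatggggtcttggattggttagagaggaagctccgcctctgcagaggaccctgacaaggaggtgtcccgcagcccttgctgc

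The element begins at -57 from the start site of Meg3, before a TATAAA box at -25, and at -178 from that of Peg3. Of 32817 mouse promoter windows of the same length, 588 or 1.79% hold these letters, and 13.6% hold TATAAA on either strand. A match is a description of the sequence and no evidence that a factor binds there in these islets. The other windows of the members, 4 of Igf2 among them, lack the letters.

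Igf2, the insulin-like growth factor that signals through the IGF1 receptor and a form of the insulin receptor, is encoded on mm10 chromosome 7 at 142650766 to 142666816 (ENSMUSG00000048583, minus strand). It had 168 counts in control islets, 133 in the library labelled knockout, 39 in the RIP and 747 in IgG, or 6.38, 5.48, 6.47 and 56.6 CPM. The islet libraries and the RIP were thus close to each other, and the IgG library was high. Igf2 was not called in the library labelled knockout, with a ratio over control of 0.890 (0.703 to 1.12). For this comparison a gene counts as called when its interval excludes 1 and the ratio, after scaling with the TMM factors of edgeR (trimmed mean of M values), is at least 1.5-fold.

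The known IMP target Igf2 was not recovered above IgG. Its ratio of RIP over IgG was 0.0709 (0.0500 to 0.0979), and its ratio of RIP over control islets was 1.23 (0.847 to 1.75), which did not pass the 2-fold limit used for the RIP and IgG libraries. The direction of the second ratio rested on the scaling: its log2 value was 0.32, and -0.12 with totals that leave out acinar and hormone genes. Reads of the RIP and IgG libraries may be repeats of few molecules, roughly estimated at 18 and 21 reads per molecule. The estimate uses genes at 0 in both islet libraries, among them the brown adipocyte marker Elovl3 with 1425 counts in IgG. Some IgG counts lie far under 21, such as 1 for Mest. Molecules are counts divided by the estimate and rounded down, so a count under it becomes 0 even where reads were present. Calls said to be lost on estimated molecules depend on this estimate and on the rounding. On estimated molecules Igf2 had 2 in the RIP and 35 in IgG, with a ratio of 0.0665 (0.00775 to 0.259), and the ratio of RIP over control was 1.14 with an interval of 0.137 to 4.17. A difference between the RIP and control islets within those bounds was not detectable at this depth. The ratio of the IgG library over control was 16.7 (14.1 to 19.9), beside the brown adipocyte markers given above, whose part in it was not tested.

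H19, the maternally expressed noncoding neighbour of Igf2 (ENSMUSG00000000031, chromosome 7, 142575529 to 142578143, minus strand), had 6 counts in control islets, 15 in the library labelled knockout, 0 in the RIP and 402 in IgG. It was near the floor in 3 libraries and abundant in the fourth. Its ratio of the IgG library over control, 251.9 (114.7 to 690.4), was the largest of the 10 members. The RIP was at least 98.7-fold lower than the IgG library, computed against 3 counts in the RIP, which is less than the estimated reads of 1 molecule. On estimated molecules, 0 in the RIP against 19 in IgG, the bound was 4.01-fold. In the islet comparison H19 averaged under 1 CPM and was not measured. Its ratio there was 2.81 (1.03 to 8.84).

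Within 1 library, the balance of Igf2 and H19 does not depend on scaling. Per kb, Igf2 exceeded H19 by 12.0-fold in control islets (5.42 to 33.3) and by 3.81-fold in the library labelled knockout (2.23 to 7.0), and these intervals overlapped. In the RIP, with 39 reads against 0, the lower limit of the ratio was 4.33, and the reads stand for an estimated 2 molecules against 0. In the IgG library it was 0.799 (0.707 to 0.904), so H19 exceeded Igf2 per kb there. Without the division by length the last ratio was 1.86, since the exons of Igf2 are longer.

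**Figure D2:**
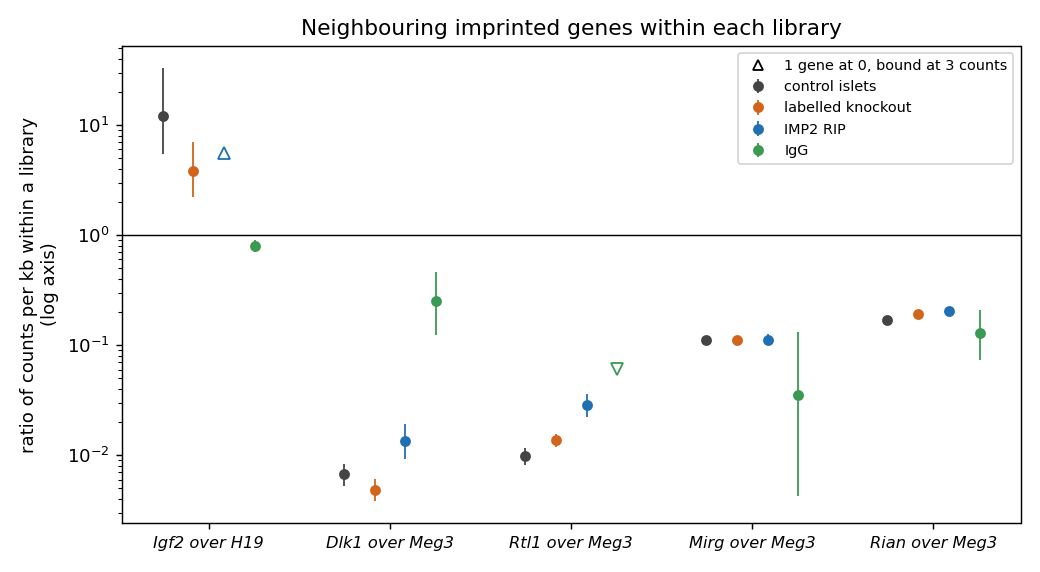
Ratio per kb of neighbouring imprinted genes within each library (log axis), with exact 95% counting intervals and open triangles for bounds at 3 counts. The ratio of Igf2 to H19 is 12.0 in control islets and 0.799 in the IgG library, and the ratio of Dlk1 to Meg3 lies between 0.00486 and 0.251.

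Dlk1, a transmembrane protein related to the Notch ligands and made by fetal and endocrine tissue (ENSMUSG00000040856, chromosome 12, 109452823 to 109463336, plus strand), had 75 counts in control islets, 73 in the library labelled knockout, 32 in the RIP and 11 in IgG. In CPM these were 2.85, 3.01, 5.31 and 0.834, so the RIP was the high library and IgG the low one. The islet libraries were close, with a ratio of 1.09 (0.782 to 1.53). The ratio of RIP over IgG was 3.95 (1.94 to 8.69) and that of RIP over control 2.27 (1.45 to 3.47). Both calls were lost on estimated molecules, where rounding down turned the 32 reads of the RIP into 1 and the 11 of IgG into 0. The call over control was also lost with library totals, and with totals that omit acinar and hormone genes.

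Meg3 (ENSMUSG00000021268, chromosome 12, 109541001 to 109571726, plus strand) shares its domain with Dlk1 and is expressed from the other parental copy. It had 35912 counts in control islets, 48028 in the library labelled knockout, 7598 in the RIP and 140 in IgG, or 1363, 1978, 1261 and 10.6 CPM. The library labelled knockout was the highest, the RIP close to control islets, and IgG low. Its ratio of labelled knockout over control of 1.503 (1.48 to 1.52) lay just inside the 1.5-fold limit, and the call was lost under library totals, DESeq2 size factors and totals without immune and immunoglobulin genes. The ratio of RIP over IgG was 73.7 (62.4 to 87.8), and over control islets it was 1.12 (1.10 to 1.15). The direction of the latter rested on the scaling: its log2 value was 0.17, and -0.11 with library totals.

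Dlk1 was a small fraction of Meg3 in each library. Per kb, the ratio of Dlk1 to Meg3 was 0.00668 in control islets, 0.00486 in the library labelled knockout, 0.0135 in the RIP and 0.251 in IgG, so Meg3 was lower in IgG by a far larger factor than Dlk1 was. The other maternally expressed noncoding RNAs of the domain, Rian and Mirg, varied less against Meg3 than Dlk1 did. Rian, which hosts small nucleolar RNAs, was 0.168, 0.191, 0.206 and 0.128 of Meg3 per kb, and Mirg, which hosts microRNAs, was 0.111, 0.112, 0.112 and 0.0354, the last from 2 reads. Rtl1, a paternally expressed gene derived from a retrotransposon and overlapped by antisense microRNA genes, was 0.00974, 0.0137 and 0.0285 of Meg3 in the first 3 libraries and had 0 counts in the IgG library. The strand setting is not known. With unstranded counting, antisense reads outside those microRNA genes would be counted as Rtl1, so its count is not tied to the paternal copy.

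Rian, Mirg and Rtl1 were also called higher in the library labelled knockout, at ratios of 1.71 (1.65 to 1.76), 1.52 (1.43 to 1.62) and 2.11 (1.69 to 2.65). Begain, the fourth measured neighbour, was not called at 1.39 (1.04 to 1.87). The neighbours of Dlk1 and Meg3 thus had 3 of 4 called higher and 0 lower, with a median log2 ratio of 0.69, where 6.13% of all measured genes were called higher and 15.3% lower. These genes share 1 domain, and Rian and Mirg lie on the strand of Meg3. Their calls are therefore not independent of each other or of that of Meg3. The call of Mirg was lost under library totals (1.47), DESeq2 size factors (1.496) and totals without immune genes (1.46), which leaves 2 of 4. Beside them, 4 of 5 alpha cell markers were called higher (median log2 ratio 0.72, summed level 14096 CPM in control islets and 24678 in the library labelled knockout), and 10 beta cell markers summed to 309568 and 335002 CPM. Immune markers summed to 1063 and 313 CPM, with 6 of 8 called lower. The part of these cell types in the result was not tested, and in bulk RNA more cells of a type and more RNA per cell cannot be told apart.

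Grb10, an adaptor that binds the insulin and IGF1 receptors and dampens their signal (ENSMUSG00000020176, chromosome 11, 11930508 to 12038683, minus strand), had 1162 counts in control islets, 1270 in the library labelled knockout, 258 in the RIP and 113 in IgG. The first 3 libraries lay between 42.8 and 52.3 CPM, and the IgG library was low at 8.56. The islet ratio of 1.23 (1.13 to 1.33) excluded 1 but stayed under the limit. The RIP was 3.10 times the IgG library (2.48 to 3.90) and 1.18 times control islets (1.03 to 1.35), the latter not called and below 1 under library totals. Its neighbours Ddc, the enzyme that makes dopamine and serotonin from their precursors, and Cobl, an actin nucleator, had islet ratios of 1.15 and 1.32, neither called.

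Gnas (ENSMUSG00000027523, chromosome 2, 174284320 to 174346744, plus strand) had 609 counts in control islets, 1027 in the library labelled knockout, 316 in the RIP and 28 in IgG. In CPM the order was RIP at 52.4, labelled knockout at 42.3, control at 23.1 and IgG at 2.12. It had the largest islet ratio among the measured members, 1.90 (1.71 to 2.10). The RIP was 15.3 times the IgG library (10.4 to 23.4) and 2.75 times control islets (2.40 to 3.16). Gnas was the only member called higher over control on estimated molecules, at 2.67 (1.54 to 4.31).

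The Gnas count is uncertain, because the antisense gene model Gm20721 mirrors 1469 of its exon bases, including 96.4% of the 394 codons of the transcript Gnas-202, which encodes the stimulatory G protein subunit. Gm20721 had 0 counts in all 4 libraries. With unstranded counting, reads over such bases would be assigned to neither gene, and the sources used here do not give the strand setting. The count is therefore not read as the level of that subunit, and alternative first exons of the locus, which encode other proteins, are in the same count. Nespas, an antisense RNA that overlaps 988 exon bases of Gnas, had 6, 12, 0 and 0 counts. Reads in more than 1 gene made up 3.89% and 4.26% of the deposited totals of the islet libraries, 10.7% for the RIP and 4.29% for IgG.

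Cdkn1c, which encodes the cell cycle inhibitor p57 (ENSMUSG00000037664, chromosome 7, 143458339 to 143461050, minus strand), had 119 counts in each islet library, 0 in the RIP and 463 in IgG. It was level between the islet libraries and absent from the reads of the RIP. The islet ratio was 1.12 (0.864 to 1.46). The RIP was at least 7.47-fold lower than control islets and at least 113.6-fold lower than the IgG library, both against 3 counts in the RIP. On estimated molecules the first call was lost, since the ratio over control could reach 3.01, and the second kept a bound of 4.71-fold, from 0 against 22. The IgG library was 14.6 times control islets (11.9 to 18.0).

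Kcnq1ot1, the paternally expressed noncoding RNA that silences the Cdkn1c domain in cis, was called higher in the library labelled knockout at 1.73 (1.59 to 1.88), from 920 and 1418 counts, and higher in the RIP than in IgG at 8.88 and than in control islets at 2.30. Its 93092 exon bases lie within the span of Kcnq1, on the other strand. With unstranded counting, reads from introns of Kcnq1 would fall in the Kcnq1ot1 count, which is therefore not tied to the paternal RNA. Of the 8 measured neighbours of Cdkn1c, Kcnq1ot1 was the only one called higher in the islet comparison, where 6.13% of all genes were called higher and 15.3% lower. Tspan32, a tetraspanin made in blood cells, was called lower at 0.273 (0.224 to 0.331), beside the lower immune markers given above. The other 6 had ratios from 0.744 (Slc22a18, a membrane transporter) to 1.46 (Tssc4, a spliceosome assembly factor).

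Plagl1, a zinc finger transcription factor known to act on other imprinted genes (ENSMUSG00000019817, chromosome 10, 13060504 to 13131694, plus strand), had 69 counts in control islets, 99 in the library labelled knockout, 42 in the RIP and 0 in IgG. The RIP was the high library at 6.97 CPM, against 2.62 and 4.08 in the islet libraries. Its islet ratio was 1.61 (1.17 to 2.23), called higher, and the call was lost at a minimum of 5 CPM, which removes the gene. It was at least 19-fold higher in the RIP than in IgG and 3.23-fold higher than in control islets (2.15 to 4.81). Both of those calls were lost on estimated molecules, with 2 in the RIP and 0 in IgG.

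Peg3 (ENSMUSG00000002265, chromosome 7, 6703892 to 6730431, minus strand) had 16924 counts in control islets, 18280 in the library labelled knockout, 3752 in the RIP and 424 in IgG. The first 3 libraries lay between 623 and 753 CPM, and IgG stood at 32.1. The islet ratio was 1.21 (1.19 to 1.24), not called. Peg3 was 12.0 times higher in the RIP than in IgG (10.9 to 13.3), while the RIP and control islets differed by a ratio of 1.18 (1.14 to 1.22), which fell below 1 under library totals. Zim1, its zinc finger neighbour, had an islet ratio of 1.20 (0.943 to 1.52).

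Mest, a protein of the alpha/beta hydrolase family that is made in growing mesoderm and fat (ENSMUSG00000051855, chromosome 6, 30723547 to 30748465, plus strand), had 180 counts in control islets, 183 in the library labelled knockout, 22 in the RIP and 1 in IgG. The islet ratio of 1.14 (0.925 to 1.41) was not called. With 1 read in IgG, the ratio of RIP over IgG of 29.9 had an interval of 4.83 to 1233. The RIP was 0.649 of control islets (0.397 to 1.01). Exons of Copg2, a coat protein gene on the other strand, cover 23.1% of the Mest exon bases, so that, as for Gnas, unstranded counting would leave such reads out and the level of Mest may be understated. Copg2 had an islet ratio of 0.905 (0.821 to 0.997).

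**Figure D3:**
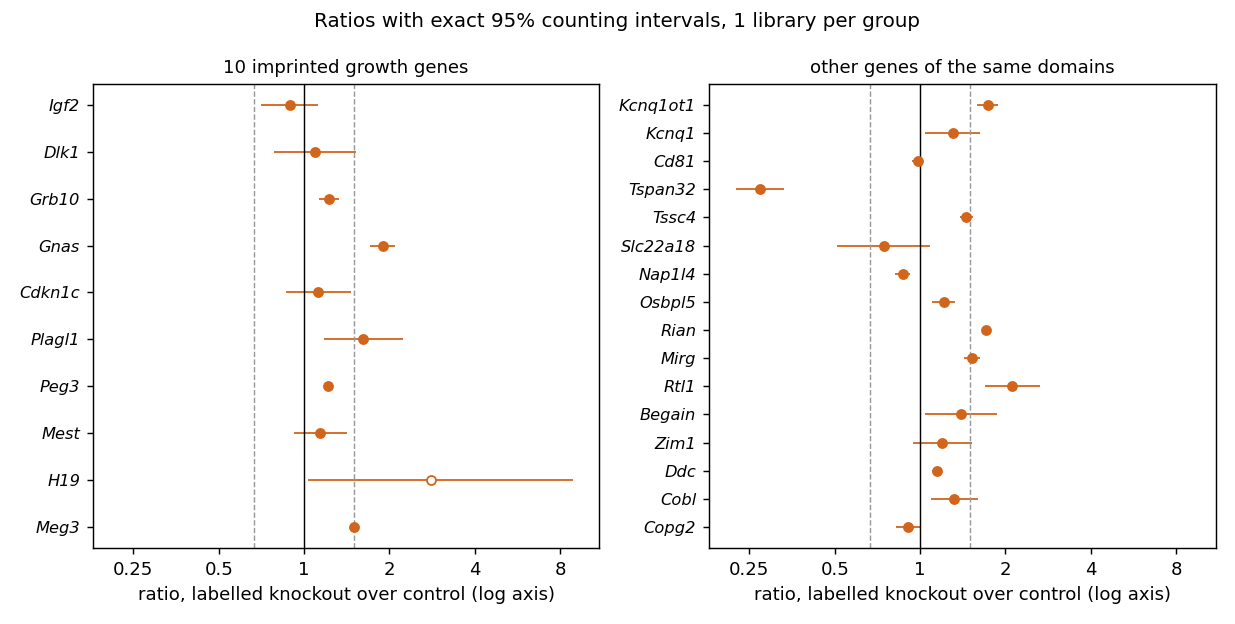
Ratio of the library labelled knockout over control islets (log axis) with exact 95% counting intervals, for the 10 imprinted growth genes (left) and measured neighbours in their domains (right). Dashed lines mark 1.5-fold and the open circle H19, which was not measured; Gnas, Plagl1 and Meg3 at 1.90, 1.61 and 1.503 pass the limit, and Tspan32 at 0.273 is the only neighbour below it.

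Across the members, 3 of the 9 measured (Meg3, Plagl1 and Gnas) were called higher in the library labelled knockout and 0 were called lower. Of all 15735 measured genes 6.13% were called higher and 15.3% lower. The members' median log2 ratio was 0.28, with 8 of 9 above 0, beside 0.00 for all genes. All 3 calls were lost at a 2-fold limit. Among the 65 other imprinted genes of a list, 41 were measured, 7 were called higher and 2 lower, with the same median of 0.28. The 7 were Kcnq1ot1, Rtl1, Rian, Mirg, Airn (1.69), Gatm (1.84) and Zdbf2 (1.66), and the lower ones were Tspan32 and Atp10a (0.368). Rtl1, Rian and Mirg share the domain of Meg3, so their calls and that of Meg3 are not independent. Airn silences the Igf2r domain in cis, Gatm makes the precursor of creatine, and Atp10a is a lipid flippase. The span of Airn overlaps that of Igf2r on the other strand. With unstranded counting, reads from introns of Igf2r could fall in the Airn count, which is therefore not tied to the Airn RNA. The numbers of called genes describe 2 libraries, and whether either list differs from other genes was not tested.

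**Figure D4:**
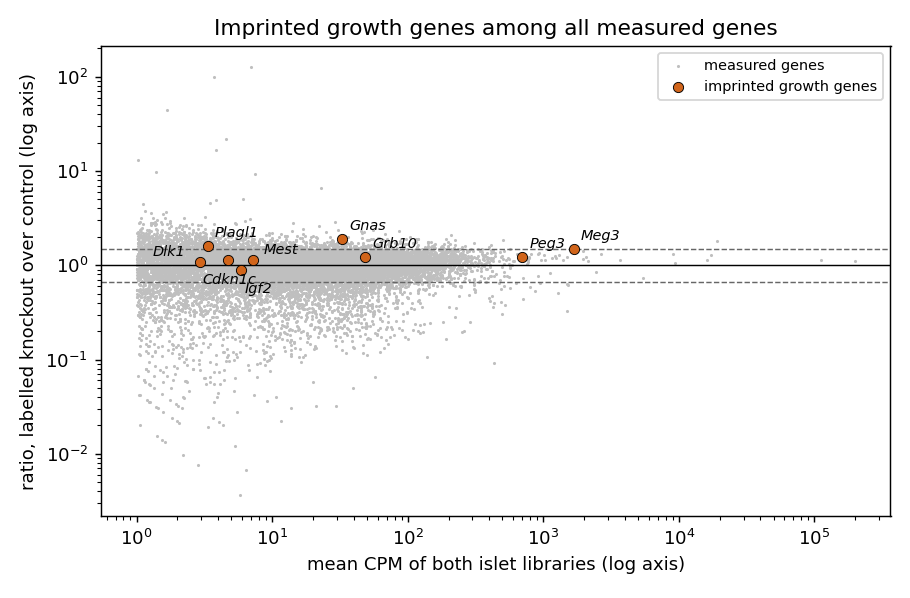
Ratio of the library labelled knockout over control islets against the mean CPM of both (log axes) for 15724 measured genes in grey, without 11 at 0 in 1 library, and the 9 measured imprinted growth genes in orange. Dashed lines mark 1.5-fold; the 9 lie between 0.890 and 1.90, inside the cloud of all genes.

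In the RIP over IgG comparison, 7 of 10 members were called higher and 3 (Igf2, H19 and Cdkn1c) lower. Of 14822 genes 43.2% were called higher and 30.5% lower, so a call in either direction was usual in this comparison. The members' median log2 ratio was 2.76, against 0.44 for all genes, and the same 7 and 3 were called under the other scalings. A minimum of 5 CPM, and likewise the estimated molecules, left Meg3, Peg3, Grb10 and Gnas as the higher ones, with the same 3 lower. Of 44 other imprinted genes measured, 24 were called higher and 10 lower. All 10 beta cell and 5 alpha cell markers were called higher too, with median log2 ratios of 7.30 and 7.03. All 7 adipocyte markers were called lower.

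Against control islets, which the same RIP library was also set against, 3 of 9 measured members had a higher call for the RIP (Dlk1, Plagl1 and Gnas) and 1 lower (Cdkn1c). Of 15968 genes 16.8% were called higher and 24.3% lower, and the median log2 ratio was 0.24 for the members and -0.12 for all genes. The IgG library over control islets had 3 of 10 members higher (Igf2, H19 and Cdkn1c) and 6 lower, with 25.7% of 15352 genes called higher and 47.3% lower. Dlk1 at 0.551 (0.264 to 1.04) was not called. These 3 comparisons share libraries, so their calls are not independent of each other: the members lower in the RIP than in IgG are those higher in IgG than in control islets. Markers of some other tissues were also higher in the IgG library. All 10 brown adipocyte, 7 adipocyte and 5 skeletal muscle markers were called higher in IgG than in control islets, as were 3 of 4 hepatocyte markers (median log2 ratio 2.72). Of 13 mesenchymal markers 3 were called higher and 2 lower, with a median of 0.27, while their summed level was 808 CPM against 1193. In the RIP over control islets, 9 of 10 brown adipocyte markers were called higher and 1 lower, and all 7 adipocyte markers higher. There Igf2 was not called, H19 was not measured, with 0 counts in the RIP, and Cdkn1c was called lower. The part of those tissues was not tested.

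**Figure D5:**
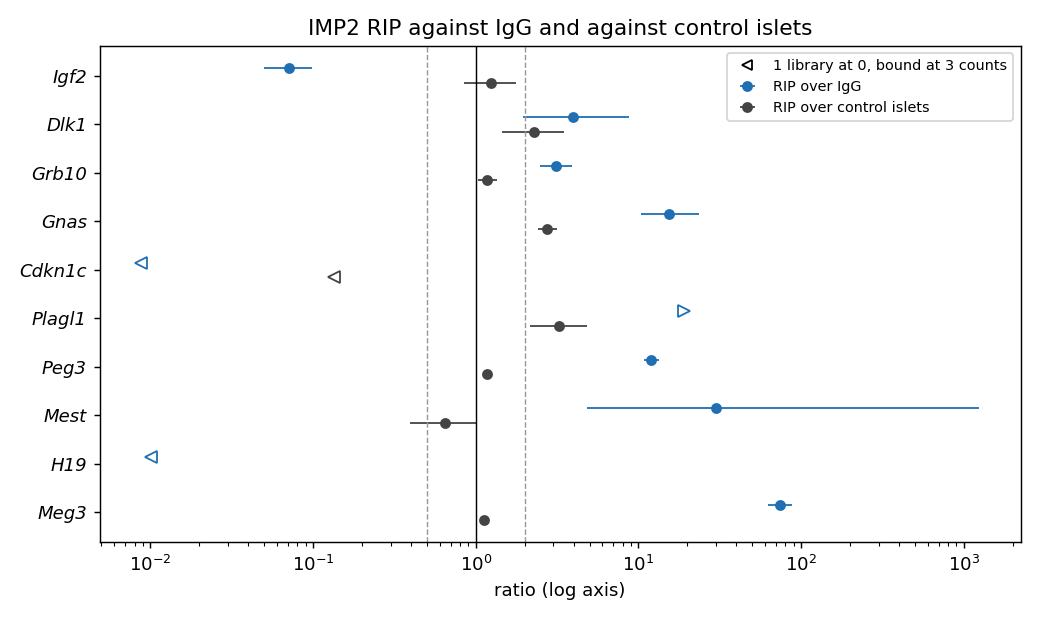
Ratio of the IMP2 RIP over IgG (blue) and over control islets (grey) for each imprinted growth gene (log axis), with exact 95% counting intervals and open triangles for bounds computed at 3 counts where a library had 0. Dashed lines mark 2-fold, H19 over control was not measured and is not drawn, and the grey points lie nearer to 1 than the blue ones for all 9 genes that have both.

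Several partners of Igf2 stood above its 1.11 per kb, and Igf1r below it. In control islets the binding protein Igfbp7 stood at 184.5 on the per kb scale, Igfbp3 at 41.4, Igfbp4 at 21.6, Igfals, which encodes the acid-labile subunit of the circulating complex, at 19.9 and Igfbp5 at 18.0. Pappa2, a protease that cuts binding proteins, stood at 9.79. Among the receptors Igf2r, the clearance receptor and itself imprinted, stood at 7.63, Insr at 3.26 and Igf1r at 0.687. Of 17 measured genes of the insulin-like growth factor axis 1 was called higher in the library labelled knockout (Igfbp6, 1.80, 1.47 to 2.20) and 1 lower (Igfbp2, 0.549, 0.368 to 0.806), with a median log2 ratio of -0.03, where 6.13% and 15.3% of all genes were called. The receptors Igf2r, Igf1r and Insr had ratios of 1.06, 0.865 and 0.999.

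The other ligand, Igf1, had 265 counts in control islets, 237 in the library labelled knockout, 283 in the RIP and 872 in IgG. Unlike Igf2, its RIP level was called higher than that of control islets, at 5.67 (4.78 to 6.73), and it was lower in the RIP than in IgG at 0.441 (0.384 to 0.505). Of 18 measured genes of the axis 7 passed as higher in the RIP than in IgG and 5 as lower, where 43.2% and 30.5% of all genes did. Igf1r had 304, 234, 22 and 0 counts, so the IgG library held Igf2 reads and no reads of this receptor.

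Some members host microRNAs, whose mature forms are shown because each lies within the transcript of its host. RefSeq places 9 mature microRNAs of 5 hairpin genes within Igf2, H19, Meg3 and Mest, and all 9 have different seeds. One arm for each host is given with the seed, bases 2 to 8, in capitals.
mmu-miR-483-3p: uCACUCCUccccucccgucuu
mmu-miR-675-5p: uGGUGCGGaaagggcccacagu
mmu-miR-770-5p: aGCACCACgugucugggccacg
mmu-miR-335-5p: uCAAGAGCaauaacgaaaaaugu

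The first lies in an intron of Igf2, the second in an exon of H19, the third in an exon of Meg3 and the fourth in an intron of Mest. The 5 hairpin genes had 0 counts in all 4 libraries, which were not made for small RNA, and reads over exonic hairpins fall in 2 genes on the same strand. The level of these microRNAs was not measured.

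The letters CATA, CATC and CATT, which binding studies report as a preferred word of IMP proteins, were counted in the longest transcript of each member. The median of 15879 genes was 10.5 per kb. Mest had 18.4 per kb (percentile 98.5 of these genes), Peg3 13.6 (84.7), Plagl1 13.3 (82.6) and Igf2 13.1 (81.3). Dlk1 at 11.2, H19 at 10.9 and Meg3 at 10.7 were near the median. Gnas at 9.37 (34.6) and Grb10 at 9.09 (31.1) were below it, and Cdkn1c at 4.21 was at percentile 1.88. Few reads keep the order of the members in the RIP from being set against these letters. H19 had only 6 counts in control islets, and Mest and Cdkn1c were not called over control islets on estimated molecules. The Gnas count is uncertain, as given above, and which transcript of a gene was expressed was not examined. A relation of the letters to the RIP was not tested. The letters are a description of the sequence, not a binding site.

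The genes whose pattern over the 4 libraries was most like that of 4 members were found by the root mean square difference of centred log2 CPM, with 0.5 added, among 13820 genes. For Igf2 they were Mrps7 (0.03), Samm50 (0.04) and Gpihbp1 (0.06). Mrps7 had 1242, 981, 301 and 5229 counts, highest in IgG as Igf2 was, at another level. For Meg3 they were Fbxl16 (0.04), Sftpd (0.04) and Cplx2 (0.05), all low in the IgG library. Dlk1 was nearest to Fbxw4 (0.03), Qrich1 (0.04) and Mplkip (0.06), and H19 to Sycp3 (0.25), Kng1 (0.30) and Gys2 (0.30), whose counts in control islets were 5, 0 and 4. With 1 added in place of 0.5, 2 of the 3 nearest genes of Igf2, 1 each of H19 and Meg3 and 0 of Dlk1 were shared. With 4 libraries such likeness is a description.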

How the data were processed

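RNA was sequenced from 4 islet libraries, flash frozen and extracted with Trizol per the labels' protocols. The authors deposited whole-number counts of reads per gene, made with STAR and HTSeq on mm10 per the submitters' processing notes. The sources used here give no versions, annotation release or strand setting. The 5 closing entries of each table, which name no gene, held 50.8%, 50.3%, 72.4% and 70.5% of the deposited counts (control, labelled knockout, RIP, IgG) and were left out.

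Of 43629 identifiers, 42548 matched GENCODE M21 (GRCm38), the source of symbols, coordinates and exon lengths. Library pairs were scaled by TMM in edgeR 4.0.16 (R 4.3.3). A gene was measured at a mean of at least 1 CPM over both libraries. Ratios carry exact Clopper-Pearson 95% intervals on the split of counts. A call needs an interval that excludes 1 and at least 1.5-fold (labelled knockout over control) or 2-fold (the 3 others). List medians use log2 after adding 0.5 counts, and bounds against 0 use 3 counts per library. Reads carry no molecular identifiers, so intervals and floors cover counting error only. Reads per molecule were estimated from genes at 0 in both islet libraries, as the median of their counts above 5 (230 genes for the RIP, 121 for IgG), a rough estimate. Estimated molecules are counts divided by it and rounded down. The calling step was tested on simulated data with counting error only and a known scale. That test did not cover repeated reads, variation between libraries or the scaling by TMM.

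The members and all lists (65 other imprinted genes, of which 59 are in the tables, 20 genes of the insulin-like growth factor axis and 12 marker lists) were chosen with earlier results of these data known. Named are all members, most neighbours measured in the islet comparison, and the other imprinted and growth factor axis genes called there. The most abundant partners and examples from the other comparisons are also named. So are the 3 genes nearest to Igf2, H19, Dlk1 and Meg3 among genes with a symbol. Alternatives were other scalings (library totals, DESeq2 1.42.0 size factors, totals without acinar and hormone genes), no filter or 5 CPM, other fold limits, estimated molecules, counts without length, and 1 added for likeness. Free exon length and totals without immune genes were chosen after seeing the data. The other steps ran in Python 3.11.15 (SciPy 1.17.1, NumPy 2.4.6, Matplotlib 3.10.9, pandas 2.3.3).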

Additional observations from a re-analysis of the deposited data

How the results depend on the processing

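No paired analysis was possible because each group has 1 library. Of 152 log2 ratios of the members under other scalings or on molecules, 106 stayed within their counting interval and 46 did not; filters and fold limits do not alter a ratio. No called member changed direction. In the islet comparison 965 genes were called higher and 2409 lower. A minimum of 5 CPM gave 497 and 1582, and a 2-fold limit gave 198 and 1375, with 0 members higher. With no filter H19 was also called higher.

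For RIP over IgG, 6402 genes were higher and 4518 lower. Totals without acinar and hormone genes gave 2805 lower. At 5 CPM 4 members and 3945 genes were higher. On estimated molecules 4 members and 2369 genes were higher and 2917 lower. For RIP over control, 2686 genes were higher and 3888 lower. Totals without acinar and hormone genes put 2 members lower (Cdkn1c and Mest). At 5 CPM 1 member was higher and 0 lower, with 1302 genes higher and 2220 lower. On estimated molecules 1 member was higher and 0 lower, with 1073 and 1283 genes. For IgG over control, 3943 genes were higher and 7268 lower. Library totals gave 2577 higher, totals without acinar and hormone genes 1944 higher, and estimated molecules 4247 lower. Fewer genes tested or fewer counts set the changes at 5 CPM and on molecules; for the scalings the cause was not tested.

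The share of calls that were higher depended on the scaling. For RIP over IgG it was 58.6%, and 69.4% with library totals, 75.3% without acinar and hormone genes and 44.8% on molecules. For RIP over control it was 40.9%, and 26.4% without those genes. For IgG over control it was 35.2%, and 21.9% and 15.7% with the same 2 totals. The median log2 ratio of all genes moved with them, from 0.44 to 1.13 and 1.56, from -0.12 to -0.40 and -0.55, and from -0.79 to -1.71 and -2.28. Without division by length, Igf2 over H19 was 8.87 in the library labelled knockout and 1.86 in IgG, and Dlk1 over Meg3 was 0.00209, 0.00152, 0.00421 and 0.0786 in the order control, labelled knockout, RIP and IgG. Depth limits the low members: H19, Dlk1 and Plagl1 in the islets, and in the RIP and IgG libraries those with few estimated molecules.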

Other observations

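Imprinted genes outside the members' domains also divided between the RIP and IgG libraries, in a comparison where 73.7% of all genes were called. Slc38a4, an amino acid transporter, had 2123 counts in control islets, 375 in the RIP and 1 in IgG. Rasgrf1, an activator of Ras proteins, had 2624, 302 and 1, and Sgce, a sarcoglycan, 274, 173 and 1. Nap1l5 had 1277, 360 and 71. In the other direction, Blcap had 1389, 375 and 4412 counts, Ndn, a protein known as necdin, 1303, 344 and 1589, and Slc22a3, a transporter of organic cations, 40, 18 and 829. The ratio of RIP over IgG was 0.115 (0.104 to 0.128) for Blcap, 0.294 (0.261 to 0.331) for Ndn and 0.0295 (0.0174 to 0.0469) for Slc22a3. Of the genes that share the control region of Igf2r, Airn was lower in the RIP than in control islets at 0.356 (0.167 to 0.674) and Slc22a3 higher at 2.39 (1.29 to 4.26), from 10 and 18 reads in the RIP. Both calls were lost on estimated molecules, of which the RIP held 0 and 1 after rounding down. The count of Airn carries the strand limit given above.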
